A study of Mus musculus with 6 samples.

Results

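Secreted proteins of the hepatocyte are folded in the endoplasmic reticulum (ER), and the genes described here encode the machinery of that compartment. They are 34 of the 15960 genes in the expression table and were taken by symbol as 5 functional groups: 11 chaperones and chaperone partners, 3 protein disulfide isomerases, 5 stress sensors and transcription factors, 8 components of ER-associated degradation, and 7 subunits of the translocon and its signal sequence receptor. Liver RNA was sequenced from 6 C57BL/6 mice aged 22 weeks, 3 Cyp2e1-/- (knockout) and 3 Cyp2e1+/+ (wild type), and mice of both genotypes had been fed a high-fat diet for 14 weeks, so no group on a control diet was compared. The sources used here give neither the design of the knockout allele nor the sex of the mice. CYP2E1 is a hepatocyte cytochrome P450 that sits in the ER membrane. Values are FPKM, fragments scaled to the length of the transcript and the mapped total of the library, so levels of different genes can be set side by side.

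Cyp2e1 itself was at 254, 247 and 271 FPKM in the 3 knockout libraries and at 7427, 5942 and 6071 in the wild type libraries, which matched the labels. Summed FPKM was 562590 to 624264 per library, and 9628 to 9963 genes reached 1 FPKM. Low values fell on steps that put the depth at about 11.2 fragments per FPKM and kilobase of transcript for knockout replicate 1 and 8.6 to 9.04 for the others. The hepatocyte markers Alb, Apoa1 and Ttr were abundant, and 8 such markers summed to 43400 to 55000 FPKM per library. Markers of Kupffer cells and macrophages (8 of 8 found) summed to 66.6 to 128 FPKM over the knockout libraries and 124 to 140 over the wild type libraries. Cholangiocyte markers (6 of 6) summed to 18.9 to 21.7 and 25.4 to 32.4 FPKM, and stellate cell markers (8 of 8) to 89.9 to 102 and 103 to 118. Most of the cholangiocyte sum was Spp1 (17.5 to 32.0 FPKM), and each of the others was below 1 FPKM. Most of the stellate sum was Dcn (61.8 to 83.7 FPKM). Sinusoidal endothelial markers (8 of 8) overlapped, at 79.0 to 114 and 87.2 to 111. The part of these cell types in the genotype differences below was not tested, and in bulk tissue fewer cells of a type and less RNA per cell cannot be told apart.

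When unfolded protein builds up in the ER, 3 membrane sensors respond. IRE1 (gene Ern1) splices the mRNA of Xbp1 into the form that encodes an active transcription factor, PERK (Eif2ak3) slows translation, and ATF6 is cut to release a transcription factor of its own. ATF6 and XBP1 raise the chaperones, the translocon and the degradation machinery that returns misfolded proteins to the cytosol, and in liver XBP1 is also known for a part in lipogenesis. A table of levels per gene holds no value for the splicing of Xbp1 or the cutting of ATF6.

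The promoters of several of these genes share sequence elements of this response, which are shown because the genes that carry them are compared below. The ER stress response element (ERSE: CCAAT, any 9 bases and CCACG, searched on both strands) is the site where ATF6 acts together with the CCAAT-binding factor NF-Y. RefSeq promoter windows (GRCm38.p6, 250 bases before to 50 after the gene start) were found for 28 of the 34 genes, and Atf6, Derl1, Hyou1, Manf, Sec61a1 and Ssr2 had none. An ERSE match lay in 9 of these 28 (Calr, Canx, Creld2, Derl3, Dnajc3, Hsp90b1, Hspa5, Pdia6 and Syvn1), against 0.137% of 27025 genes with a window. The variant ERSE-II (ATTGG, any 1 base and CCACG) was matched in Herpud1 and Dnajb11, against 0.0444% of all genes, and the XBP1-type element TGACGTGG in none, against 0.714%. No gene held both ERSE and ERSE-II, and Hsp90b1 held a pair of ERSE matches, of which the one nearer the start is shown. A match is a description of the letters in the window and not a measured binding site. The genes were picked as members of the response these elements belong to, so their excess over all genes is not a test. The stretches below are written 5′ to 3′ along the gene, with the matched element in capitals. In Hsp90b1, Calr, Creld2 and Derl3 the element reads as its reverse complement.
Hspa5, chr2:34771975-34772073, plus strand: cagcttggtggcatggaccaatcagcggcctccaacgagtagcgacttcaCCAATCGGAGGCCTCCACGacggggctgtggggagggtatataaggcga
Hsp90b1, chr10:86705503-86705601, minus strand: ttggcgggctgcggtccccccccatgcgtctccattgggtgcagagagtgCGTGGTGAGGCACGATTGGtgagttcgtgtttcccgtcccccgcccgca
Calr, chr8:84847045-84847143, minus strand: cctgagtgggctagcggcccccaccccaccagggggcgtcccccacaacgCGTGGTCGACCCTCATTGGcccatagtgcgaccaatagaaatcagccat
Pdia6, chr12:17266441-17266539, plus strand: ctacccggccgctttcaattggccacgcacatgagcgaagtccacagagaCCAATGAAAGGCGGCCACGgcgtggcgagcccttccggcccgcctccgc
Creld2, chr15:88819470-88819568, plus strand: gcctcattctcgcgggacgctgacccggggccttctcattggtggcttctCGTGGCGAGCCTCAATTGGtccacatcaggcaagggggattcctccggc
Derl3, chr10:75893192-75893290, plus strand: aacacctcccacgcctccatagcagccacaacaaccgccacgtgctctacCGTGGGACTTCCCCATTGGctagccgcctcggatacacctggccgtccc
Syvn1, chr19:6046482-6046575, plus strand: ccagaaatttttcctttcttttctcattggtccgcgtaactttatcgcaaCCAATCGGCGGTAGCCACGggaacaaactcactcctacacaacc
Herpud1, chr8:94386327-94386417, plus strand: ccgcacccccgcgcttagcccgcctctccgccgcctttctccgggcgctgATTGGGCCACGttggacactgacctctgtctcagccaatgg
The element began 65 bases before the start in Hspa5, 156 in Derl3 and 52 in Herpud1.

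All 34 genes passed the filter of at least 1 FPKM in at least 3 libraries. None differed between the genotypes in limma's test across 9968 genes with Benjamini-Hochberg adjustment, where 0.762% of all tested genes passed, 0.472% as higher and 0.291% as lower in the knockout. At an unadjusted p under 0.05 there were 3 of the 34 (Xbp1, Herpud1 and Derl2), and this held for 9.93% of all tested genes, so the share is near the background. The fold change, knockout minus wild type in log2(FPKM + 1), was negative for 23 and positive for 11, with a median of -0.057 beside -0.028 over all tested genes. It ran from -0.63 to 0.37. Values of the genotypes did not overlap for 3 genes that were lower in the knockout (Hspa5, Xbp1 and Derl2; background 10.0%) and for 1 that was higher (Herpud1; background 5.32%). A larger contrast ran through both genotypes: replicate 1 of each held less of most of these mRNAs than replicates 2 and 3, as shown in the map of all members by library.

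**Figure D1:**
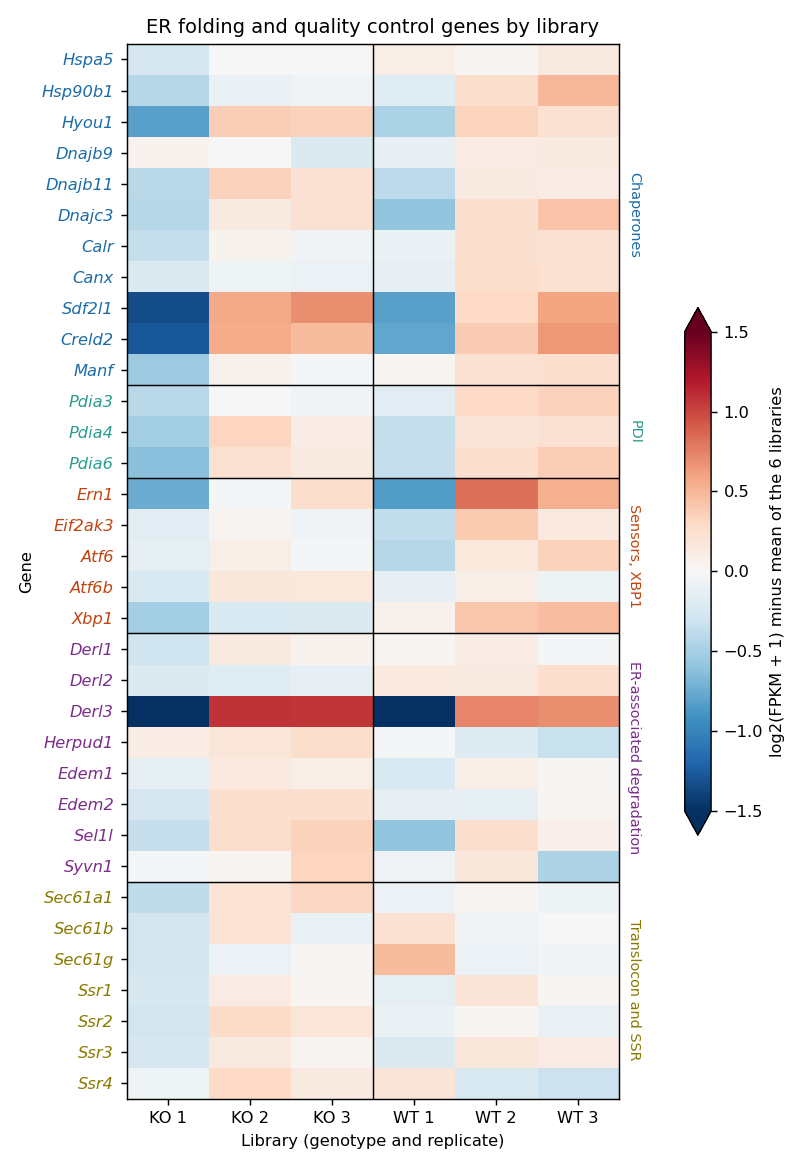
Each row is a gene and each column a library (KO, knockout; WT, wild type); colour gives log2(FPKM + 1) minus the gene's mean over the 6 libraries, capped at 1.5 in both directions, and names are coloured by functional group (PDI, protein disulfide isomerases; SSR, signal sequence receptor). The columns of replicate 1 are blue for most genes in both genotypes, with Derl3, Sdf2l1 and Creld2 darkest, while Xbp1 is lower and Herpud1 higher in the knockout columns.

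Among the chaperones, the most abundant were Calr, encoding the lectin chaperone calreticulin, and Hsp90b1, encoding the ER form of HSP90, with means of 245 and 242 FPKM over the 6 libraries. Hspa5, which encodes BiP, the HSP70 of the ER that also binds the stress sensors, was at 96.4, 116 and 115 FPKM in knockout replicates 1 to 3 and at 124, 116 and 127 in wild type. All 3 knockout values lay below the wild type values, but knockout replicates 2 and 3 and wild type replicate 2 were almost level (115.69, 115.23 and 116.42), and the difference of -0.17 (SE 0.12) had an adjusted p of 0.71 in limma. Hsp90b1 was at 176, 220 and 227 FPKM in the knockout libraries and at 208, 284 and 334 in wild type. Wild type replicate 1 fell among the knockout libraries, and the difference was -0.39 (SE 0.18; limma, adjusted p = 0.53).

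Calr was at 224 ± 32.5 FPKM for the knockout and 266 ± 34.6 for wild type (SD, n = 3), and its membrane-bound relative Canx, calnexin, at 62.2 ± 3.6 and 74.5 ± 10.5. Manf, a small secreted protein of the ER lumen, was at 17.5 ± 3.92 and 22.1 ± 1.9. For these 3 genes too the genotypes overlapped. Dnajb9, Dnajb11 and Dnajc3 encode J-domain partners of BiP, and Hyou1 encodes a large HSP70 relative that recharges it. Their differences lay between -0.10 and 0.09, with adjusted p-values of 0.90 to 0.98 in limma. Of the 11 chaperone genes 10 had a negative difference, beside 5567 of the 9968 tested genes, with a median of -0.163, and none passed. Single-library omissions turned the sign for Hyou1, Dnajb11, Dnajc3, Sdf2l1 and Creld2.

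The 3 disulfide isomerases form and reshuffle the cysteine bridges of secreted proteins. Pdia3, the partner of calreticulin and calnexin, was at 127, 169 and 164 FPKM in the knockout libraries and at 152, 210 and 216 in wild type, a difference of -0.32 (SE 0.17; limma, adjusted p = 0.59). The genotypes overlapped only through wild type replicate 1. Pdia6 was at 145 ± 42.4 and 162 ± 40.6 FPKM and Pdia4 at 45.0 ± 12.8 and 46.1 ± 10.0 (SD, n = 3), differences smaller than the spread within each genotype. All 3 differences were negative, with a median of -0.173, and none passed. Single-library omissions turned the sign for Pdia4 and Pdia6.

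Of the sensors and transcription factors, Xbp1 (chromosome 11, 5520641 to 5525993, GRCm38) had the lowest p of all 34 genes. It was at 29.6, 36.2 and 36.4 FPKM in knockout replicates 1 to 3 and at 44.3, 57.15 and 58.9 in wild type. Every knockout library lay below every wild type library, and replicate 1 was the lowest of its genotype in both. The difference of -0.63 (SE 0.15) had an unadjusted p of 0.0017 and an adjusted p of 0.12 in limma, which does not pass. Without wild type replicate 1 the adjusted p was 0.034, and over the other single-library omissions it reached 0.47.

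The mRNAs of the sensors were far less abundant than those of the major chaperones, at means of 2.74 FPKM for Eif2ak3, 5.47 for Atf6b, 6.17 for Ern1 and 6.73 for Atf6. Ern1 was at 2.91, 5.41 and 6.87 FPKM in the knockout libraries and at 2.68, 10.6 and 8.49 in wild type. The replicate 1 libraries of the genotypes were level, and the difference of -0.35 (SE 0.40; limma, adjusted p = 0.86) was smaller than its error. Atf6, Atf6b and Eif2ak3 differed by -0.05, 0.07 and -0.12, with adjusted p-values of 0.97, 0.95 and 0.93 in limma. The median of the 5 genes was -0.118.

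ER-associated degradation was the group with most positive differences, 6 of 8, beside 4401 of the 9968 tested genes, and a median of 0.167. Single-library omissions turned the sign for Derl1, Derl3, Edem1 and Sel1l. Herpud1 (chromosome 8, 94386429 to 94395371), whose product is a membrane scaffold of the degradation complex, was at 183, 192 and 203 FPKM in the knockout libraries and at 166, 148 and 135 in wild type. No values overlapped, and the difference was 0.37 (SE 0.12; limma, unadjusted p = 0.013 and adjusted p = 0.31). Derl2 (chromosome 11, 71007440 to 71019841), one of the derlins that help move proteins out of the ER, was at 16.0, 16.3 and 17.0 FPKM in the knockout libraries and at 20.7, 20.5 and 22.4 in wild type. It went the other way without overlap, at -0.35 (SE 0.12; limma, unadjusted p = 0.014 and adjusted p = 0.32), and in both genotypes its replicate 1 stood level with the others.

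Derl1 was at 36.0 ± 5.66 FPKM in the knockout against 37.6 ± 1.89 (SD, n = 3). Sel1l, the adaptor of the central degradation complex, was at 10.6, 16.7 and 17.8 FPKM in knockout replicates 1 to 3 and at 8.79, 16.6 and 14.6 in the wild type ones, with replicate 1 lowest in both. Syvn1, the ubiquitin ligase of that complex, was at 8.05 ± 1.22 and 6.82 ± 1.68 FPKM. Edem1 and Edem2, whose products trim mannose from misfolded glycoproteins, were at 19.8 ± 2.15 and 18.7 ± 2.23 and at 14.5 ± 2.91 and 12.7 ± 0.932. None of these 5 differences exceeded 0.23 in size.

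The translocon genes Sec61a1, Sec61b and Sec61g encode the channel through which new proteins enter the ER, and Ssr1 to Ssr4 encode the associated signal sequence receptor. Ssr4 was at 87.6, 114 and 101 FPKM in the knockout libraries and at 105, 78.0 and 73.3 in wild type. Wild type replicate 1 stood above replicates 2 and 3 and overlapped the knockout, and the difference was 0.24 (SE 0.16; limma, adjusted p = 0.68). Sec61g was at 42.7, 48.95 and 52.7 FPKM in the knockout libraries and at 72.6, 48.9 and 50.4 in wild type, so that its single high library was wild type replicate 1. The other 5 genes differed by -0.11 to 0.12 (limma, adjusted p = 0.89 to 0.96), and the median of all 7 was -0.053. Exons of Hsp90b1, Dnajb9, Manf, Pdia3, Pdia6, Eif2ak3, Derl2, Syvn1, Sec61a1 and Ssr2 overlap exons of genes on the opposite strand, and the sources used here do not say if strand was used in counting.

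**Figure D2:**
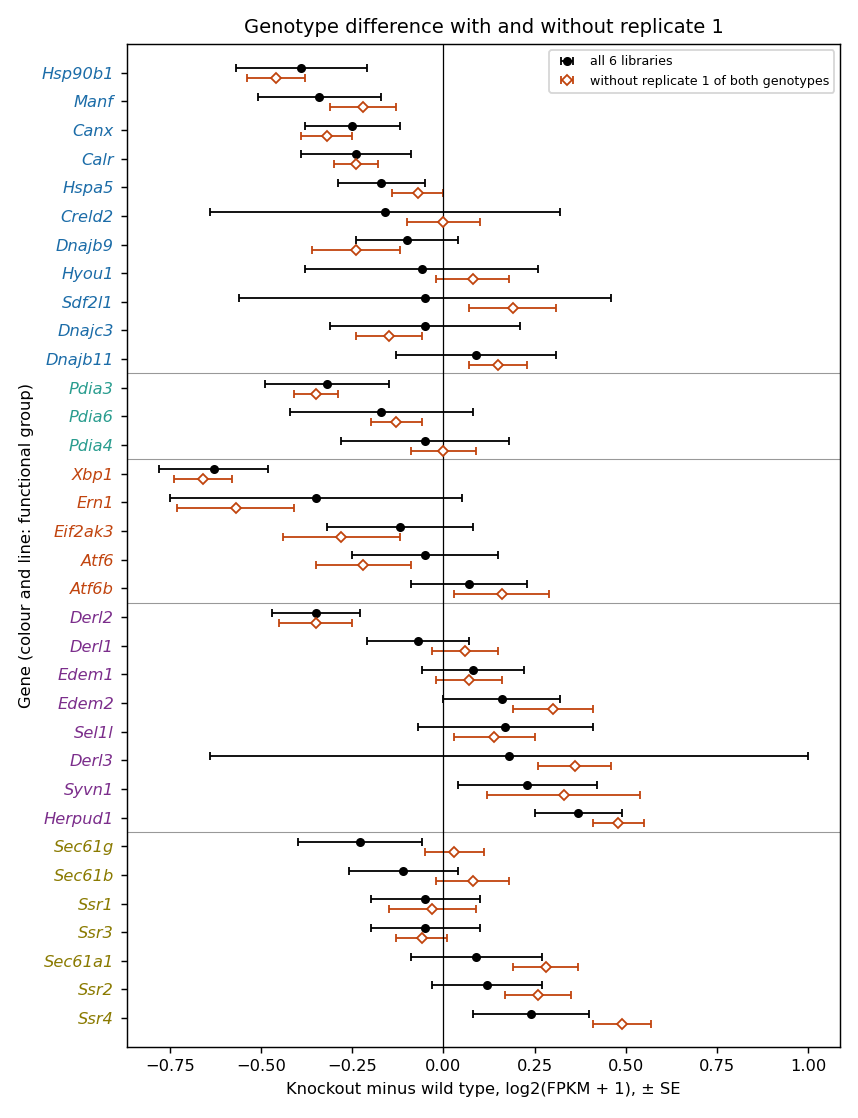
Points are knockout minus wild type in log2(FPKM + 1) with the standard error from limma, for all 6 libraries (filled circles) and for replicates 2 and 3 of each genotype (open diamonds), grouped by function. Xbp1 lies lowest at -0.63 and Herpud1 highest at 0.37 with all libraries, and the error of Derl3 shrinks from 0.82 to 0.10 without replicate 1.

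The libraries of replicate 1 were then set beside replicates 2 and 3 within each genotype. This split was known from earlier results of these data, so the values are a description and carry no test. Derl3 (chromosome 10, 75893398 to 75895941), a derlin of secretory cells and a target of XBP1, was at 1.39 FPKM in knockout replicate 1 against 17.7 and 17.5 in replicates 2 and 3, and at 1.72 FPKM in wild type replicate 1 against 13.6 and 13.3. Replicate 1 thus held 7.9% of the mean of the other pair in the knockout but 12.8% in wild type, and the genotypes overlapped only through it. By the mean of the 2 differences in log2(FPKM + 1), Derl3 ranked 2 from the lowest of 9968 tested genes.

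Sdf2l1, which encodes a partner of BiP and its J-domain protein, was at 7.08, 29.1 and 32.0 FPKM in knockout replicates 1 to 3 and at 10.6, 24.0 and 29.6 in wild type. Creld2, an ER protein induced by stress, was at 11.5, 43.5 and 41.2 FPKM in the knockout libraries and at 16.7, 38.4 and 46.5 in wild type. In both genes replicate 1 was the low library of each genotype, at 23.2% and 27.2% of the other pair in the knockout, and at 39.6% and 39.3% in wild type. These ranked 10 and 16 from the lowest. Hyou1 was at 5.91, 14.7 and 14.4 FPKM in the knockout libraries and at 7.73, 14.2 and 13.2 in wild type, and Ern1 replicate 1 held 47.4% and 28.0% of the other pair.

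**Figure D3:**
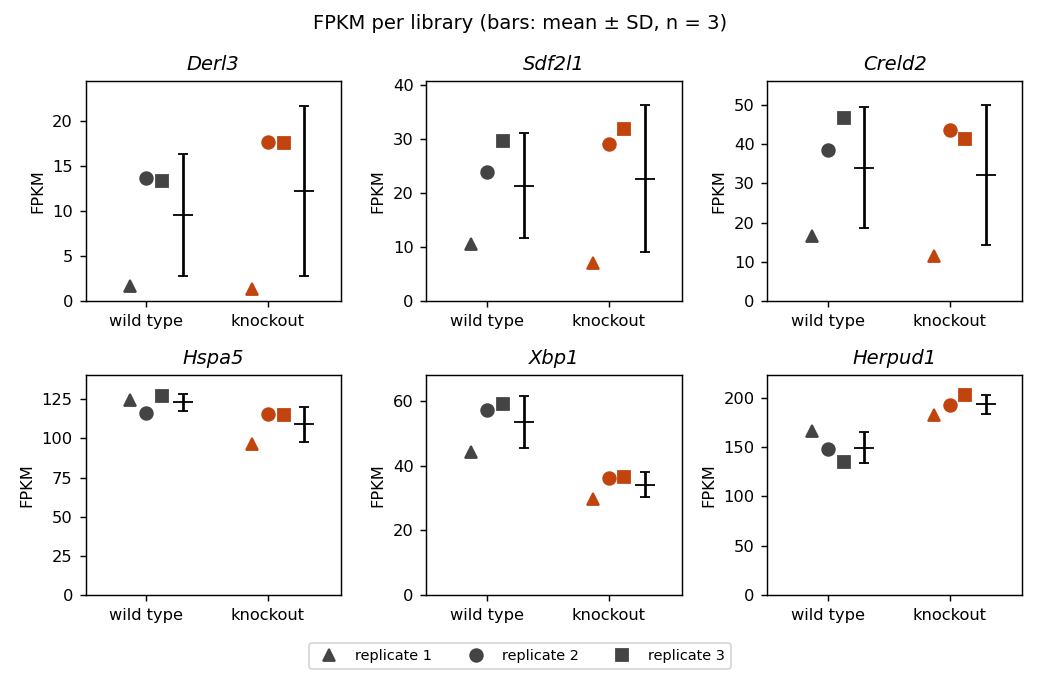
FPKM of 6 genes in each library, with wild type in grey and knockout in orange, marker shape by replicate number, and bars for the mean ± SD of 3 libraries; every axis starts at 0. For Derl3, Sdf2l1 and Creld2 the triangles of replicate 1 lie far below the other libraries of both genotypes, whereas for Xbp1 and Herpud1 the genotypes separate.

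Other chaperones and the disulfide isomerases shifted by less. Dnajc3 replicate 1 was at 64.6% of the other pair in the knockout and 51.7% in wild type, Pdia6 at 57.1% and 62.7%, Pdia4 at 59.3% and 66.5%, and Dnajb11 at 60.5% and 68.8%. Hsp90b1 stood at 78.7% and 67.5%, Pdia3 at 76.5% and 71.3%, and Calr at 77.7% and 79.0%. Hspa5 was lower in knockout replicate 1 (83.5%) but level in wild type (102%). The shift was thus larger for Derl3, Sdf2l1 and Creld2 than for these genes, and Hspa5 moved in 1 genotype.

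Some members did not share the pattern. Herpud1 replicate 1 was at 92.6% of the other pair in the knockout and 117% in wild type, Sec61g at 84.0% and 146%, Ssr4 at 81.7% and 138%, and Sec61b at 79.3% and 119%. Only Dnajb9 was higher in knockout replicate 1 (112%), and it was lower in wild type (82.9%). In all, 27 of 34 genes were lower in replicate 1 of both genotypes by the difference in log2(FPKM + 1), which is 79.4% beside 42.3% of all tested genes. None was higher in both, where 1814 of the 9968 tested genes were, and 7 went opposite ways.

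Both replicate 1 libraries lay below all 4 other libraries for 21 of the 34 genes, against 24.2% of all tested genes, and above them for 0 of 34, against 6.46%. The 21 were 8 of 11 chaperone genes, 3 of 3 disulfide isomerases, 4 of 5 sensors and transcription factors, 3 of 8 degradation genes and 3 of 7 translocon genes. With median-ratio scaling the count was 16 against 17.3% of all tested genes, and with scaling on genes other than the major urinary proteins it was 25 against 28.6%. The median difference was -0.37 for the knockout and -0.35 for wild type, where that over all tested genes was -0.14 and -0.05. Across the 34 genes the differences in the 2 genotypes, which share no library, had a Pearson r of 0.80 and a Spearman rho of 0.59, and without Derl3, Sdf2l1 and Creld2 an r of 0.52. Over all tested genes r was 0.30. Genes are not independent replicates, and each axis rests on 1 library against 2.

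**Figure D4:**
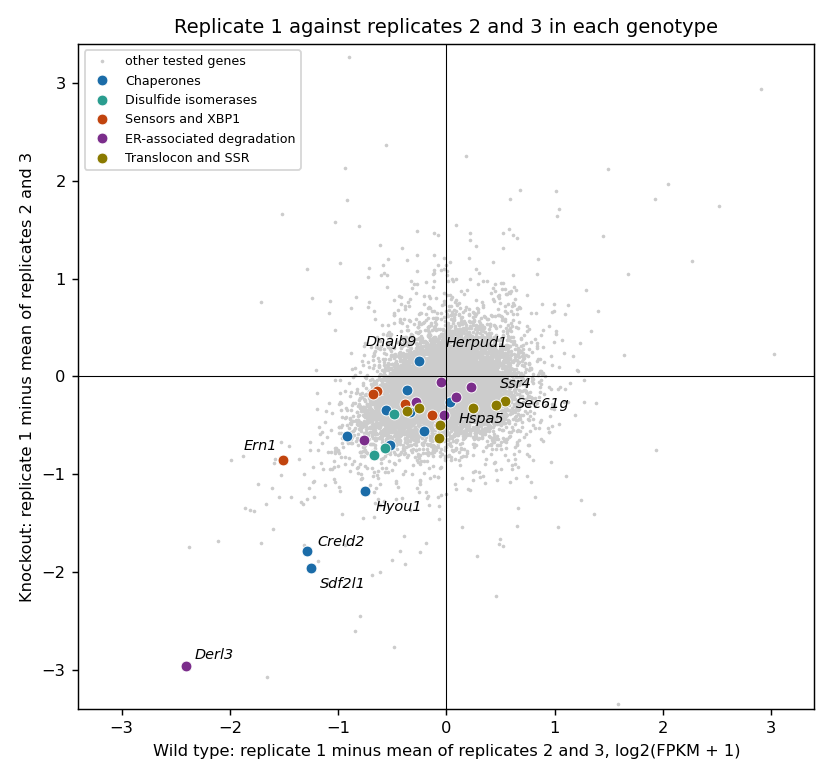
Replicate 1 minus the mean of replicates 2 and 3 in log2(FPKM + 1), for wild type on the x axis and knockout on the y axis; small grey points are all tested genes (3 lie outside the axes) and large points are the 34 genes by functional group. Most large points lie in the lower left part, with Derl3 farthest out at -2.41 and -2.96, while Sec61g, Ssr4 and Herpud1 lie to the right of 0.

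Other measures moved with replicate 1. Red blood cell genes (5 of 6 found) summed to 393 and 536 FPKM in the replicate 1 libraries and 196 to 303 in the others, and hepatocyte markers to 55000 and 50300 against 43400 to 49900. Most of the hepatocyte sum was Alb, and the markers did not move as 1 class. Alb, Apoa1 and Ass1 were highest in replicate 1 of each genotype, while Apob, Hnf4a and Cps1 were lowest in it. The 20 most abundant genes took 45.8% of knockout replicate 1 and 42.2% to 43.0% of the other libraries, wild type replicate 1 among them. The part of these in the replicate 1 pattern was not tested. Derl3 is also known from plasma cells. Markers of plasma and B cells (8 of 10 found; Igkc and Ighm were not analysed here) summed to 32.7 and 37.3 FPKM in the replicate 1 libraries and 32.7 to 53.9 in the others. Most of that sum was Sdc1, at 30.4 to 49.7 FPKM, which hepatocytes also express, while Jchain was at 1.3 to 2.7 FPKM, Mzb1 at 0 to 0.38 and Tnfrsf17 at 0 to 0.14. The part of plasma cells in the Derl3 values was not tested. Of the pancreatic acinar markers (4 of 10 found), Pnlip (0 to 0.07 FPKM) and Amy2a5 (0 to 0.06) were at or near 0. Cela1 was at 21.4 to 44.2 FPKM and Cela2a at 0.42 to 1.23. Replicate 1 of the knockout was the lowest of all libraries for Cela1 (21.4), and replicate 1 of wild type the highest (44.2). Cela2a, at few fragments, was lower in replicate 1 of the knockout (0.64) and wild type (0.42) than in all other libraries, so the 2 genes did not move together. The part of acinar cells in the replicate 1 pattern was not tested.

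Without replicate 1 of both genotypes, which leaves 2 libraries each, 8 of the 34 genes passed (23.5%; limma with Benjamini-Hochberg adjustment), against 11.9% of all tested genes. This omission was made with the replicate 1 pattern known. Dropping the libraries that stand apart narrows the spread within each genotype, most for genes that follow the pattern. The counts and p-values of this fit are therefore a description and carry no weight as a test. Of these 5 fell in the knockout, where the background was 4.95%, and 3 rose, where it was 6.92%. Those that fell were Xbp1 (-0.66, SE 0.08; limma, adjusted p = 0.0011), Hsp90b1 (-0.46, SE 0.08; adjusted p = 0.0093), Pdia3 (-0.35, SE 0.06; adjusted p = 0.0087), Canx (-0.32, SE 0.07; adjusted p = 0.022) and Calr (-0.24, SE 0.06; adjusted p = 0.046). For Calr, Canx and Pdia3, mean FPKM in knockout replicates 2 and 3 was 0.849, 0.797 and 0.781 times that of wild type replicates 2 and 3. With all 6 libraries the genotypes overlapped for these genes, and the adjusted p-values were 0.66, 0.59 and 0.59 in limma. Those that rose were Herpud1 (0.48, SE 0.07; limma, adjusted p = 0.0039), Ssr4 (0.49, SE 0.08; adjusted p = 0.0067) and Derl3 (0.36, SE 0.10; adjusted p = 0.047). The median over the 34 genes was 0.003. None of the 8 passed with all 6 libraries.

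The promoter sequences shown earlier can be read beside these values. Of the 9 genes with an ERSE match, both replicate 1 libraries lay below all others in 7, against 11 of the 19 genes with a promoter window and no match and 24.2% of all tested genes. The 2 exceptions were Hspa5 and Syvn1, which stood at 102% and 105% of the other pair in wild type replicate 1. Herpud1, with ERSE-II, was at 193 ± 9.95 FPKM in the knockout against 149 ± 15.7 (SD, n = 3), the only one of the 34 with every knockout value above every wild type value. Dnajb11, the other gene with ERSE-II, did not share this. It was at 35.5 ± 9.51 FPKM against 32.9 ± 6.62 with overlap, and its replicate 1 was low in both genotypes (60.5% and 68.8% of the other pair). Derl3, Sdf2l1 and Creld2, the lowest in replicate 1, include Sdf2l1, whose window held none of the 3 elements.

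The surrounding pathway was read from 7 further lists holding 159 genes, of which 158 were in the table and 153 were tested. Of these 14 had an unadjusted p under 0.05 in limma, beside 9.93% of all tested genes, and 1 passed after adjustment, beside 0.762%, so both shares are near the background. That gene, Asns, encodes asparagine synthetase and is a target of ATF4 in the PERK arm. It was at 0.45, 0.74 and 0.75 FPKM in the knockout libraries and at 15.3, 7.33 and 9.50 in wild type. Asns fell by 2.78 on the log2 scale (SE 0.23; limma, adjusted p = 3.2e-04). Of the other 13 tested genes on the list for that arm none passed. Gdf15, a secreted stress cytokine, was at 1.75, 1.6 and 1.73 FPKM in the knockout libraries and at 2.94, 6.12 and 5.61 in wild type, without overlap (-1.08, SE 0.22; limma, adjusted p = 0.067). Ddit3, which encodes the stress factor CHOP, was at 2.41 ± 0.901 and 4.41 ± 0.937 FPKM (SD, n = 3; limma, adjusted p = 0.28), and the list had a median of 0.003. In COPII and ER to Golgi transport 0 of 29 passed. Lman1, the cargo receptor that carries clotting factors out of the ER, was at 36.6, 52.65 and 52.45 FPKM in the knockout libraries and at 21.2, 30.6 and 25.8 in wild type, with every knockout value above every wild type value. Its difference of 0.84 (SE 0.18) had an adjusted p of 0.085 in limma, and of 0.035 with the replicate number as a block, which made it the second of 2 pathway genes called.

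In the list of targeting, translocation and signal peptidase 0 of 17 passed, 16 of 17 differences were negative and the median was -0.166, beside -0.028 over all tested genes. The exception was Tram2, at 1.90, 4.55 and 5.40 FPKM in the knockout libraries and 1.40, 1.71 and 1.61 in wild type (0.87, SE 0.26; limma, adjusted p = 0.26). None passed among 31 folding and disulfide enzymes (median -0.092), 23 genes of N-glycosylation and glycoprotein quality control (median -0.054), 23 further degradation genes (median 0.008) or 16 regulators (median -0.002). The largest differences in these lists were -0.29 for Erp44, -0.25 for Stt3a, -0.41 for Tmem129 and 0.63 for the stress kinase gene Map3k5 (limma, adjusted p = 0.45, 0.67, 0.39 and 0.21). Without replicate 1 of both genotypes, with the limit given above for that fit, 17 of the 153 genes passed in limma, against the background of 11.9%. The 7 that rose were Lman1, Tram2, Map3k5, Cebpb, Ddit4, Rnf5 and Ube2g2, from 0.32 for Rnf5 to 1.16 for Tram2. The 10 that fell were Asns, Gdf15, Ddit3, Eif2s1, Erp44, Srp19, Spcs3, Sec11c, Arcn1 and Ubxn4, from -0.34 for Arcn1 to -2.42 for Asns. On the list for the PERK arm, that fit put Gdf15 (-1.36; limma, adjusted p = 7.3e-04) and Ddit3 (-0.92; adjusted p = 0.034) lower in the knockout. It put Cebpb (0.82; limma, adjusted p = 0.002) and Ddit4 (0.81; adjusted p = 0.011) higher. With all 6 libraries none of these passed (limma, adjusted p = 0.067, 0.28, 0.59 and 0.64). In knockout replicate 1, Cebpb (102 FPKM) lay among the wild type libraries and Ddit4 (2.48 FPKM) below them. The activity of PERK itself was not measured. Both replicate 1 libraries lay below the other 4 for 53 of the 153 pathway genes, against 24.2% of all tested genes.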

How the data were processed

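Liver RNA of 3 Cyp2e1-/- and 3 Cyp2e1+/+ mice was extracted with a column kit and made into TruSeq libraries, per the labels' protocols. HISAT and mm10 are named by the submitters' processing notes, with the quantifier not given in the sources used here. FPKM per gene, to 2 decimals, were deposited by the authors, per the file headers. As FPKM are not counts, no count test was run. From these values limma 3.58.1 (R 4.3.3; lmFit, eBayes with trend) was run on log2(FPKM + 1) over genes reaching 1 FPKM in 3 or more of the 6 samples, with Benjamini-Hochberg adjustment over all 9968 and a threshold of 0.05. The log2 scale with a pseudocount of 1 understates changes of low genes. The script was tested on simulated data. All 34 genes are reported. Of the pathway lists, genes past the threshold with all samples are named, or the one with the largest difference, and all that pass without replicate 1 of both genotypes. Which of these, and which markers, are given with values was chosen after seeing them. The members, groups and lists were chosen with earlier results of these data known.

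Depth was estimated from whole-fragment steps in low values of transcripts of 800 to 2000 bases. At the depth that fitted best, 78.7% to 84.6% of values fell no farther than 0.15 from a whole step. By chance 30% would at a depth fixed in advance, and the level for a depth chosen on the same values was not computed. Few fragments stand behind genes of a few FPKM, which limits their precision. Whether the titles' replicate numbers pair the samples was checked by the correlation of deviations from the group means, which was 0.30, 0.198 and 0.157 for replicates 1, 2 and 3. As all exceed 0.1 the samples were treated as paired in a second fit with the replicate as a block, and the first has none. Knockout replicate 3 had a higher correlation with wild type replicate 2 (0.212), so the numbers 2 and 3 are not told apart as pairs. Deviations from a group mean cancel out within the group, so a shift shared by replicate 1 also raises the correlations among replicates 2 and 3. Those values are thus not separate evidence of pairing. Nothing states how the animals were sampled, so p-values reflect only the variation among these samples. Positions and promoters came from RefSeq on GRCm38, the assembly mm10 names. The alternatives were the pseudocount, the filter, 2 scalings, the block, no trend, and leaving out libraries.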

Additional observations from a re-analysis of the deposited data

How the results depend on the processing

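No member passed, and every fold change kept its sign, under the other pseudocount, no filter, either scaling, the replicate as a block or no trend; the block changed no member's call. Leaving out 1 library gave 0 to 1 members called (Xbp1, without wild type replicate 1), 29 to 211 of all genes and 1 to 4 pathway genes. Without replicate 1 of both genotypes these counts were 8, 1183 and 17, where the fits lack the 2 libraries that stand apart. With no filter 32 of all genes passed over a larger number tested, and with the block 2 pathway genes. By their ranges over single-library omissions, signs were unsettled for Hyou1 (-0.31 to 0.33), Dnajb11 (-0.08 to 0.33), Dnajc3 (-0.35 to 0.16), Sdf2l1 (-0.47 to 0.61), Creld2 (-0.59 to 0.43), Pdia4 (-0.24 to 0.19), Pdia6 (-0.40 to 0.09), Eif2ak3 (-0.33 to 0.05), Atf6 (-0.28 to 0.11), Derl1 (-0.15 to 0.06), Derl3 (-0.62 to 1.17), Edem1 (-0.02 to 0.16), Sel1l (-0.08 to 0.39), Sec61a1 (-0.05 to 0.30), Ssr1 (-0.14 to 0.05) and Ssr3 (-0.17 to 0.06). Signs also turned without replicate 1 of both genotypes for Hyou1 (0.08), Sdf2l1 (0.19), Creld2 (0.00), Pdia4 (0.00), Derl1 (0.06), Sec61b (0.08) and Sec61g (0.03). None of these genes passed with all 6 libraries or with 1 left out, though Derl3 passed without replicate 1 of both genotypes, and the cause was not tested. The scalings of the replicate 1 count were chosen after seeing the data. For genes of a few FPKM the depth limits what can be told.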
